A study of Homo sapiens with 32 samples.

Results

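Etoposide-treated U2OS cells with 1 A347D allele of p53 and 1 wild-type allele (HET) were compared with etoposide-treated U2OS cells without p53 (KO). The comparison took the 4 HET and 4 KO etoposide libraries, 8 of the 32 in the series, by their labelled genotype and treatment, and covered all genes. U2OS is a human osteosarcoma line. Etoposide is a topoisomerase II poison, and cells received 20 µM of it, or DMSO as the control, for 24 h. Beside them stood the HET and KO libraries in DMSO and the etoposide libraries of wild-type cells (WT, 2 wild-type alleles) and of cells with A347D on both alleles (HOM), 4 of each. The 4 libraries of a group came from separate plates, per the series' design text, so p-values measure the spread between plates. The number of edited lines per genotype and the kind of knockout allele are not given there, and a difference of genotype and a difference of line cannot be told apart.

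The p53 protein is a transcription factor that binds DNA as a tetramer. DNA double-strand breaks stabilize it, and it then raises genes of cell cycle arrest, DNA repair, cell death, metabolism and its own degradation. Genes of the cell cycle are repressed indirectly: p21, encoded by CDKN1A, inhibits cyclin-dependent kinases, which keeps the RB family and the DREAM complex on promoters with E2F and CHR elements. The A347D change is in the domain through which p53 tetramerizes, and it is called a dimer-forming mutant in the title of the series. The comparison with the knockout asks what 1 wild-type allele beside the mutant one still drives.

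Levels are normalized counts, that is, counts divided by the authors' library size factors, as mean ± SD over 4 libraries where an error is given. A difference is HET minus KO on the scale of log2(normalized count + 1), with its standard error (SE). It comes from a limma fit over 28 libraries in 7 groups, the groups above and the 4 WT libraries in DMSO. Of 35587 gene symbols, 15745 had at least 10 normalized counts in at least 4 of the 8 etoposide libraries and were tested. The same genes were tested in every other comparison, so genes with counts in DMSO only were left out. A gene could pass this filter through HET or KO alone. A gene was called at an adjusted p under 0.05 (Benjamini-Hochberg, two-sided) and at least a 1.5-fold difference. The 8 libraries held 8051382 to 22496750 counts. HET replicate 2 was the shallow one, and the other 7 held at least 19195783. KO replicate 1 had 20425 genes with a count, against 22144 to 22305 in the other 3 KO libraries. Without HET replicate 2, 2720 genes were higher and 2474 lower, and without KO replicate 1, 2678 and 2453.

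Over all genes, 2799 were higher in HET (17.8% of those tested) and 2533 lower (16.1%). All 4 HET libraries lay above all 4 KO libraries in 4713 genes (29.9%) and below them in 4460 (28.3%). The balance of the 2 directions moved with the scaling. Scaling to total counts shifted the median of all genes from 0.03 to 0.20 and gave 3881 higher and 1770 lower genes, and voom on the recovered counts gave 3986 and 1761.

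More than 50% of these genes differed in the same direction without etoposide. In DMSO, in other libraries of the same lines, 2996 genes were higher in HET (19.0%) and 2794 lower (17.7%), or 5066 and 1667 under total-count scaling and 5049 and 1652 with voom on the recovered counts. Of the genes higher in etoposide, 1588 were also higher in DMSO (56.7% of them, and 53% of those higher in DMSO), 1119 were not called there and 92 were lower. Of the genes lower in etoposide, 1538 were also lower in DMSO (60.7%, and 55.0% of those lower in DMSO), 961 were not called and 34 were higher. The change on etoposide was therefore also compared between the lines. This response difference, HET minus KO of etoposide minus DMSO, was positive for 1666 genes (10.6%) and negative for 1329 (8.44%). Under total-count scaling it was positive for 1303 and negative for 1805, and with all 32 libraries in the fit for 1295 and 802. It shares its etoposide libraries with the comparison in etoposide, so both values stand side by side below.

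**Figure D1:**
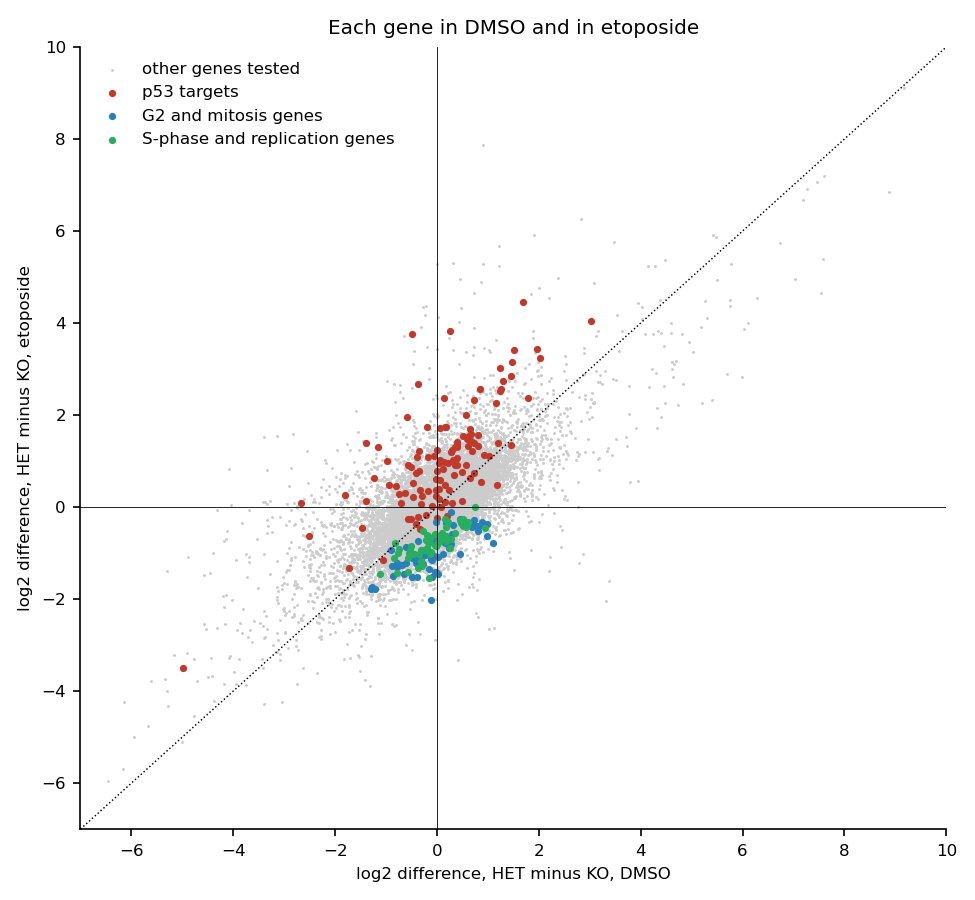
Each point is 1 of 15745 genes, with the log2 difference HET minus KO in DMSO on the x axis and in etoposide on the y axis; the dotted line marks equal differences. Of 116 tested p53 targets (red) 72 had a positive response difference and 0 a negative one, and of 60 G2 and mitosis genes (blue) and 54 S-phase genes (green) 37 and 35 had a negative one and 0 a positive one. Of all genes 10.6% had a positive response difference and 8.44% a negative one.

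Known p53 targets were mostly higher in HET cells after etoposide. Of 121 listed targets 116 were tested, 76 were higher (17.8% of all genes were) and 4 lower (16.1%), and the median difference was 0.97 against 0.03 over all genes. The 5 below the filter were TP53AIP1, TNFRSF10A, TNFRSF10D, SPATA18 and HES2. In DMSO 32 of the 116 were higher (19.0% of all genes), 17 lower (17.7%) and the median was 0.14. The response difference was positive for 72 (10.6%) and negative for 0 (8.44%), with a median of 0.92. Under the alternatives run, total-count scaling and leaving out each library included, 74 to 82 targets were higher in etoposide and 3 or 4 lower.

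CDKN1A (chromosome 6 at 36676460 to 36687339) encodes the cell cycle inhibitor p21. It stood at 16910, 17410, 19210 and 17990 in the HET libraries and at 9428, 9433, 8479 and 8159 in the KO libraries. The groups did not overlap, with a difference of 1.01 ± 0.09 (adjusted p = 3.07e-10). In DMSO the order was reversed, with 1551 ± 154 in HET and 3063 ± 267 in KO (-0.98 ± 0.09), and the response difference was 1.99 ± 0.13 (adjusted p = 3.83e-12). The HET level after etoposide lay between the WT level of 34110 ± 2040 (HET minus WT -0.93 ± 0.09, adjusted p = 3.73e-09) and the HOM level of 7526 ± 407 (HET minus HOM 1.25 ± 0.09).

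GDF15 (chromosome 19 at 18374731 to 18389176), a secreted stress cytokine, had a larger difference. Its levels were 1488, 1724, 1782 and 1632 in HET and 141.1, 120.7, 106.3 and 119.4 in KO. No HET library came near a KO library, and the difference was 3.76 ± 0.17 (adjusted p = 3.25e-16). In DMSO both lines were low, at 22.79 ± 4.93 in HET and 33.59 ± 12.5 in KO. WT cells reached 8205 ± 639 in etoposide (HET minus WT -2.31 ± 0.17, adjusted p = 2.19e-11) and HOM cells had 146.7 ± 12.3.

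Of 14 arrest and growth control targets, 9 were higher in HET than in KO and 0 lower (median 0.75). TP53INP1, a stress-induced regulator of autophagy and arrest, ranged from 1335 to 1495 in HET and from 118.9 to 157.2 in KO (3.41 ± 0.12). ZMAT3, an RNA-binding protein, ranged from 2526 to 2667 and from 334.3 to 397.6 (2.85 ± 0.08). Neither gene was called between HET and WT, with differences of -0.11 ± 0.12 and 0.17 ± 0.08. BTG2, an antiproliferative gene, had 2795 ± 164 in HET and 848.4 ± 42.9 in KO (1.72 ± 0.08), and its HET level was below WT (-0.87 ± 0.08). FBXW7, the substrate receptor of a ubiquitin ligase for cyclin E, differed by 1.57 ± 0.10.

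Feedback genes act on p53 itself, and 4 of 8 were higher in HET and 0 lower (median 0.73). MDM2 (chromosome 12 at 68808176 to 68850686), the ubiquitin ligase that degrades p53, stood at 1924, 1927, 1682 and 2077 in HET and at 434.2, 429.8, 490.3 and 562.4 in KO. Every HET library was above every KO library, with a difference of 1.99 ± 0.15 (adjusted p = 8.48e-12) and a response difference of 1.42 ± 0.21. WT cells had 1772 ± 150 (HET minus WT 0.10 ± 0.15, adjusted p = 0.576) and HOM cells 605.7 ± 34.4. The ubiquitin ligase subunit FBXO22 (1.33 ± 0.10), the cyclin CCNG1 (1.22 ± 0.11) and the phosphatase PPM1D (0.91 ± 0.09) were the other 3.

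**Figure D2:**
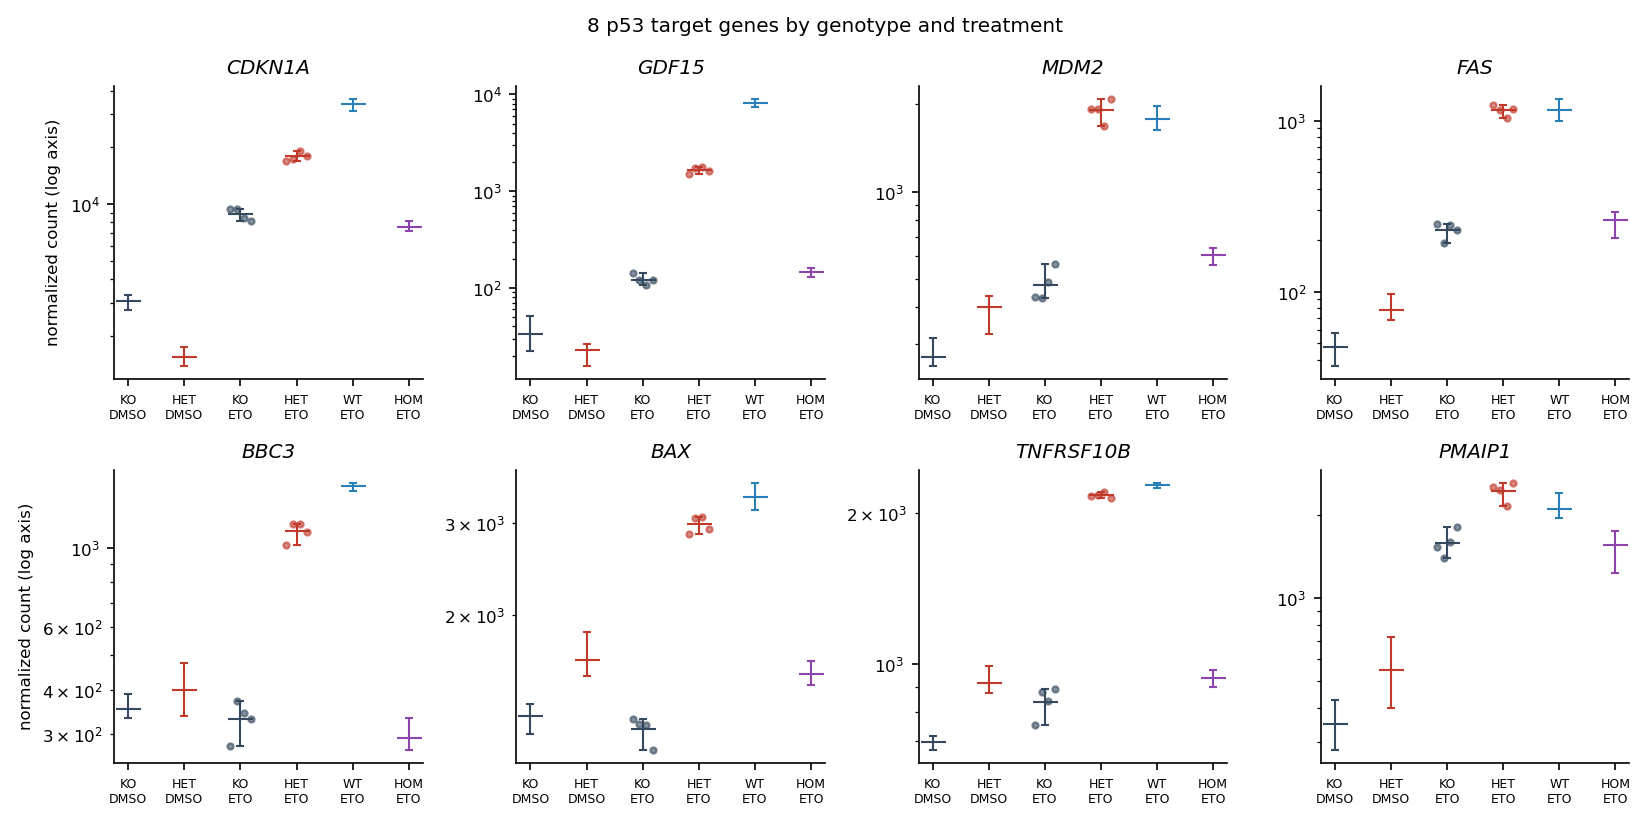
Normalized counts (log axis) of 8 p53 targets in 6 groups; dashes are means of 4 libraries, bars span the lowest to the highest library, and dots are the single libraries of KO and HET with etoposide. All 4 HET libraries with etoposide lie above all 4 KO libraries in the 8 genes, HET minus WT was called in CDKN1A (-0.93) and GDF15 (-2.31), and it was not called in the other 6.

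In the cell death list 10 of the 17 tested genes were higher in HET and 1 lower (median 1.06). FAS, the death receptor, stood at 1238, 1158, 1040 and 1177 in HET and at 249.8, 191.9, 246.8 and 230.3 in KO (2.33 ± 0.20, adjusted p = 1.07e-10). BBC3, which encodes the BH3-only protein PUMA, stood at 1017, 1167, 1168 and 1106 and at 277.5, 372.5, 343.4 and 330.4 (1.75 ± 0.09, adjusted p = 1.12e-14). For both genes the groups were far apart. The WT means were 1151 ± 140 for FAS (0.01 ± 0.20) and 1490 ± 31.8 for BBC3 (-0.42 ± 0.09, below the fold threshold).

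BAX, a pore-forming effector of mitochondrial cell death, ranged from 2849 to 3080 in HET and from 1100 to 1261 in KO (1.31 ± 0.08). TNFRSF10B, a TRAIL receptor, ranged from 2140 to 2206 and from 753.2 to 888.6 (1.37 ± 0.06). EDA2R, a receptor of the TNF receptor family, had 867.5 ± 24.6 and 96.14 ± 4.89 (3.16 ± 0.11). PHLDA3, an inhibitor of AKT, had 4589 ± 236 and 892.8 ± 101 (2.37 ± 0.10). For these 4 genes the response difference was called too, at 0.95, 0.98, 1.69 and 2.24.

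PMAIP1, which encodes the BH3-only protein NOXA, stood at 2539, 2481, 2171 and 2616 in HET and at 1540, 1401, 1607 and 1816 in KO (0.63 ± 0.17, adjusted p = 0.00243). The groups did not overlap, but the difference was small beside those of FAS and BBC3 and the response difference was -0.01 ± 0.24. The call was lost without KO replicate 2 (0.57) and with all 32 libraries in the fit (adjusted p = 0.0701). BID, a BH3-only protein cleaved by caspases, was lower in HET in etoposide, with 377.5 ± 20.8 against 839.1 ± 57.1 (-1.15 ± 0.09), and in DMSO (-1.06 ± 0.09).

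The repair and nucleotide supply targets had 7 of 10 higher in HET and 0 lower (median 1.43). RRM2B, a p53-inducible subunit of ribonucleotide reductase, had 3679 ± 284 in HET and 553.3 ± 45 in KO (2.73 ± 0.19). RPS27L, a paralog of a ribosomal protein, had 4424 ± 714 and 745.7 ± 75.1 (2.56 ± 0.13). The damage recognition genes DDB2 (1.75 ± 0.08) and XPC (1.59 ± 0.06) were higher as well. PCNA, the replication clamp, had 5523 and 5065 and was not called (0.12 ± 0.07).

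Metabolic and redox targets were higher in HET in 14 of 20 and lower in 1 (median 0.94). GLS2, a mitochondrial glutaminase, stood at 123.6, 137.4, 143.6 and 136.3 in HET and at 2.766, 3.473, 8.118 and 8.407 in KO. It had the largest difference of all 116 targets, 4.46 ± 0.27 (adjusted p = 1.70e-13), and passed the filter through its HET libraries alone. ACER2, an alkaline ceramidase, differed by 3.03 ± 0.16, SESN1, a stress-induced inhibitor of mTORC1, by 2.53 ± 0.12, and FDXR, the mitochondrial ferredoxin reductase, by 1.74 ± 0.11. The HET levels of GLS2 and FDXR were below WT (-1.54 and -0.97). STEAP3, a metalloreductase, was lower in HET than in KO in etoposide (-1.33 ± 0.09) and in DMSO (-1.73 ± 0.09).

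Of 47 signalling, trafficking and other targets, 32 were higher and 2 lower (median 1.03). INPP5D, a phosphatase of inositol lipids, ranged from 132.3 to 144.4 in HET and from 4.203 to 12.91 in KO (4.05 ± 0.23). GRHL3, an epithelial transcription factor, had 159.2 ± 20.9 and 10.71 ± 3.81 (3.83 ± 0.39), and PSTPIP2, an actin-associated adaptor, had 574.2 ± 42 and 52.37 ± 8.11 (3.44 ± 0.12). The 2 lower genes were SERPINB5 and SYTL1. Both were lower in HET in DMSO too, and both had a called positive response difference. SERPINB5, which encodes maspin, ranged from 13.39 to 22.55 in HET and from 175.4 to 224 in KO (-3.49 ± 0.36), and in DMSO the means were 0.6568 and 51.36. SYTL1, a vesicle trafficking gene, had 30.47 and 47.86 (-0.62 ± 0.18), and its call was lost in 7 of the alternatives, among them total-count scaling (-0.46) and leaving out HET replicate 1 (-0.57), KO replicate 2 (-0.55) or KO replicate 3 (-0.57).

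For some targets the lines were not called apart in etoposide, while HET was lower in DMSO. PRDM1, a transcriptional repressor, had 98.09 in HET and 92.28 in KO after etoposide (0.09 ± 0.12, not called) but 39.38 and 253.7 in DMSO (-2.67 ± 0.12). Its response difference was 2.77 ± 0.17 (adjusted p = 1.21e-12). SUSD6, a membrane protein gene, and NOTCH1, a signalling receptor, had differences of 0.27 and 0.13 in etoposide, -1.80 and -1.39 in DMSO, and response differences of 2.07 and 1.52. SFN, which encodes 14-3-3 sigma, had -0.45 in etoposide, -1.47 in DMSO and a response difference of 1.02. These 4 were picked after their values were seen.

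Against WT cells with etoposide, 2147 of all genes were higher in HET (13.6%) and 2173 lower (13.8%). Of the 116 p53 targets 3 were higher than in WT and 37 lower (median -0.26). The 3 were DUSP14 (1.13), PSTPIP2 (0.77) and TNFAIP8 (0.65). Lower than in WT were 8 of 14 arrest genes, 10 of 20 metabolic genes and 17 of 47 signalling and other genes, and 1 of 8 feedback, 1 of 10 repair and 0 of 17 death genes. Whether these shares differ between the roles was not tested. Against HOM cells, where 2633 of all genes were higher in HET (16.7%) and 2670 lower (17.0%), 73 of the 116 targets were higher and 3 lower.

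Promoters were searched for p53 sites because most of these targets moved in 1 direction. RefSeq promoters (GRCh38.p14, 250 bases before to 50 after the start, 1 per symbol) were found for 99 of the 116 targets and for 11565 of the 15745 tested genes. The p53 consensus site was searched on both strands as 2 half-sites of 10 bases, with a spacer of at most 1 base, at most 2 mismatches and the core C and G of each half-site kept. It was found in 3 of the 99 targets (3.03%), in 0.398% of the tested genes and in 0.531% of all 27305 promoters. Sites farther upstream, in introns, or with more mismatches or a longer spacer were not searched. A promoter without a match is therefore not a gene without a p53 site. The sites of the 2 called members with a match are shown, with the site in capitals:
AEN: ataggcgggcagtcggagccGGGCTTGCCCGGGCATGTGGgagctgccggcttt
GLS2: gccggAGGCTTGCTGGGGCATGCGCt
The AEN stretch lies at chr15:88621286-88621339 on the plus strand, with the site from base -34 counted from the start, and the GLS2 stretch at chr12:56488112-56488137 on the minus strand, with the site from base 30. AEN, a p53-induced nuclease named here for its match, had 3266 in HET and 1568 in KO (1.06 ± 0.06). The third match was in DCP1B, an mRNA decapping gene, which was not called (0.34). Over all tested genes a site was in 14 of 1227 promoters with a positive response difference (1.14%) and in 2 of 972 with a negative one (0.206%). For the comparison in etoposide the shares were 0.626% of higher, 0.282% of lower and 0.363% of genes not called.

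Genes of G2 and mitosis were mostly lower in HET cells after etoposide. All 60 listed genes were tested, and 43 were lower (16.1% of all genes) and 0 higher (17.8%), with a median of -1.04. In DMSO 13 were lower (17.7% of all genes) and 7 higher (19.0%), with a median of -0.09. The response difference was negative for 37 (8.44% of all genes) and positive for 0 (10.6%), with a median of -0.94. Against WT in etoposide 25 were higher in HET (13.6% of all genes) and 0 lower (13.8%), with a median of 0.44. Against HOM 0 were higher (16.7%) and 42 lower (17.0%).

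NUSAP1, a spindle microtubule protein, had the largest difference of them. It stood at 406.4, 395.7, 377.3 and 418.3 in HET and at 1971, 1344, 1626 and 1641 in KO. The groups did not overlap, and the difference was -2.03 ± 0.14 (adjusted p = 2.02e-12). In DMSO the lines had 1774 and 1902 (-0.11 ± 0.14), and the response difference was -1.92 ± 0.20. WT cells in etoposide had 214.8, and HET lay above them (0.90 ± 0.14).

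FOXM1, the transcription factor of mitotic genes, ranged from 3471 to 4160 in HET and from 12140 to 13850 in KO (-1.78 ± 0.12). CDCA3, a cell division gene, had 435.5 ± 9.79 and 1496 ± 84.1 (-1.78 ± 0.06), and NCAPD2, a condensin subunit, 3004 ± 109 and 10040 ± 477 (-1.74 ± 0.09). These 3 genes were lower in DMSO too, by -1.30, -1.21 and -1.27, and their response differences were -0.48, -0.57 and -0.47, under the fold threshold. They lie in the first 10 Mb of chromosome 12, where the median difference of the 118 tested genes was -0.56. Each of the 60 G2 and mitosis genes lay below the median of its own 10 Mb window.

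The cell cycle genes homology region (CHR), the element TTTGAA, was searched in the same promoters on both strands. It was in 40 of the 51 G2 and mitosis promoters found (78.4%), in 10.0% of the tested genes and in 15.4% of all promoters. The share of 78.4% counts listed members, called or not, so it describes the list and not the comparison. The 4 called members with a match and the largest differences are shown, with the element in capitals:
NUSAP1: tggcgccagggaTTTGAAccgcgctgacga
CDCA3: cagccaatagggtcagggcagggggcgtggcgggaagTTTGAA
NCAPD2: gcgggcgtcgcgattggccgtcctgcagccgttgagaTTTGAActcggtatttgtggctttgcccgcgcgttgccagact
BUB1B: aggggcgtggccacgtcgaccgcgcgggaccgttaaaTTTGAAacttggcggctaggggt
They lie at chr15:41332882-41332911 (plus strand), chr12:6851284-6851326 (minus), chr12:6493920-6493999 (plus) and chr15:40161009-40161068 (plus). The element begins at base 14, -3, -145 and -23 counted from the transcription start. BUB1B, a spindle checkpoint kinase named here for its match, had 375.2 in HET and 1081 in KO (-1.52 ± 0.10). Over all tested genes the element was in 16.5% of promoters with a negative response difference and 8.80% of those with a positive one. For the comparison in etoposide the shares were 11.5% of lower and 10.9% of higher genes.

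S-phase and replication genes were mostly lower in HET as well. Of 54 genes, all tested, 39 were lower (16.1% of all genes) and 0 higher (median -0.78), and in DMSO 6 were lower (17.7%) and 4 higher (19.0%). The response difference was negative for 35 (8.44% of all genes) and positive for 0 (10.6%), with a median of -0.70. Under total-count scaling 28 were lower in etoposide (11.2% of all genes). Against WT 23 were higher in HET (13.6% of all genes) and 0 lower (13.8%), with a median of 0.42.

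CHAF1A, a subunit of a replication-coupled histone chaperone, stood at 718, 680.7, 711.7 and 686.2 in HET and at 1906, 1875, 1880 and 1965 in KO. The groups did not overlap, and the difference was -1.45 ± 0.07 (adjusted p = 8.78e-16), against -1.12 ± 0.07 in DMSO. DUT, which hydrolyses dUTP, differed by -1.44 ± 0.08. TK1, thymidine kinase, had 3958 ± 260 in HET, 10510 ± 977 in KO (-1.41 ± 0.12) and 3909 in WT (0.02 ± 0.12).

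E2F elements were searched on both strands as TTTCCCGC or TTTGGCGC, and matches of different elements could overlap. They were in 17 of the 44 S-phase promoters found (38.6%), in 3.50% of the tested genes and in 2.31% of all promoters. The G2 and mitosis promoters held one in 3.92%, and the S-phase promoters held TTTGAA in 6.82%. These shares of the lists also count members called or not. The 4 called members with a match and the largest differences are shown, with the element, on the opposite strand here, in capitals:
UHRF1: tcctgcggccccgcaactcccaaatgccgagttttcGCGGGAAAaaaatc
MCM7: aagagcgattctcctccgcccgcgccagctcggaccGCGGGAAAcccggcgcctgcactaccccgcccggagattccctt
TYMS: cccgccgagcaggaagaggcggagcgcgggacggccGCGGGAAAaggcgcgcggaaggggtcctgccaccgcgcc
POLE: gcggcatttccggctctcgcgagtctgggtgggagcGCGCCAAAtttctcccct
They lie at chr19:4909451-4909500 (plus strand), chr7:100101541-100101620 (minus), chr18:657578-657652 (plus) and chr12:132687343-132687396 (minus). These genes, named here for their match, are UHRF1, which recruits maintenance DNA methylation (-1.10 ± 0.08), the replicative helicase subunit MCM7 (-1.01 ± 0.07), thymidylate synthase TYMS (-1.0 ± 0.06) and the DNA polymerase epsilon subunit POLE (-0.94 ± 0.12).

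Of 37 homologous recombination and Fanconi genes, 13 were lower in HET (16.1% of all genes) and 0 higher (17.8%), with a median of -0.43. The response difference was negative for 19 (8.44% of all genes) and positive for 0 (10.6%). With all 32 libraries in the fit it was negative for 8 (5.09% of all genes). FANCG, a Fanconi core complex subunit, ranged from 908.5 to 1040 in HET and from 2906 to 3206 in KO (-1.65 ± 0.09). EME1, a subunit of a structure-specific nuclease (-1.43 ± 0.09), and XRCC3, a homologous recombination factor (-1.18 ± 0.10), were lower as well.

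Replication-dependent histone transcripts had the opposite direction in these poly-A libraries. Of 26 listed genes 15 were tested, and 11 were higher in HET (17.8% of all genes) and 1 lower (16.1%), with a median of 0.91. The response difference was positive for 7 (10.6% of all genes) and negative for 1 (8.44%). With the filter at 50 normalized counts 10 were tested, and 7 were higher (16.8% of all genes) and 0 lower (16.3%). With no filter on low values 24 were tested, and 11 were higher (12.8% of all genes) and 2 lower (9.76%), with a median of 0.65. HIST1H2AC stood at 242.1, 211.2, 190.7 and 185.1 in HET and at 35.95, 39.94, 44.65 and 41.19 in KO (2.33 ± 0.13). HIST1H4H (2.04 ± 0.16), HIST2H2BE (1.98 ± 0.09) and HIST1H2BE (1.92 ± 0.28) were higher, and HIST2H2AC was lower (-1.32 ± 0.15). Most of these transcripts lack a poly-A tail, and members of a cluster are near copies whose reads may have been split, so the values of single genes are uncertain.

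**Figure D3:**
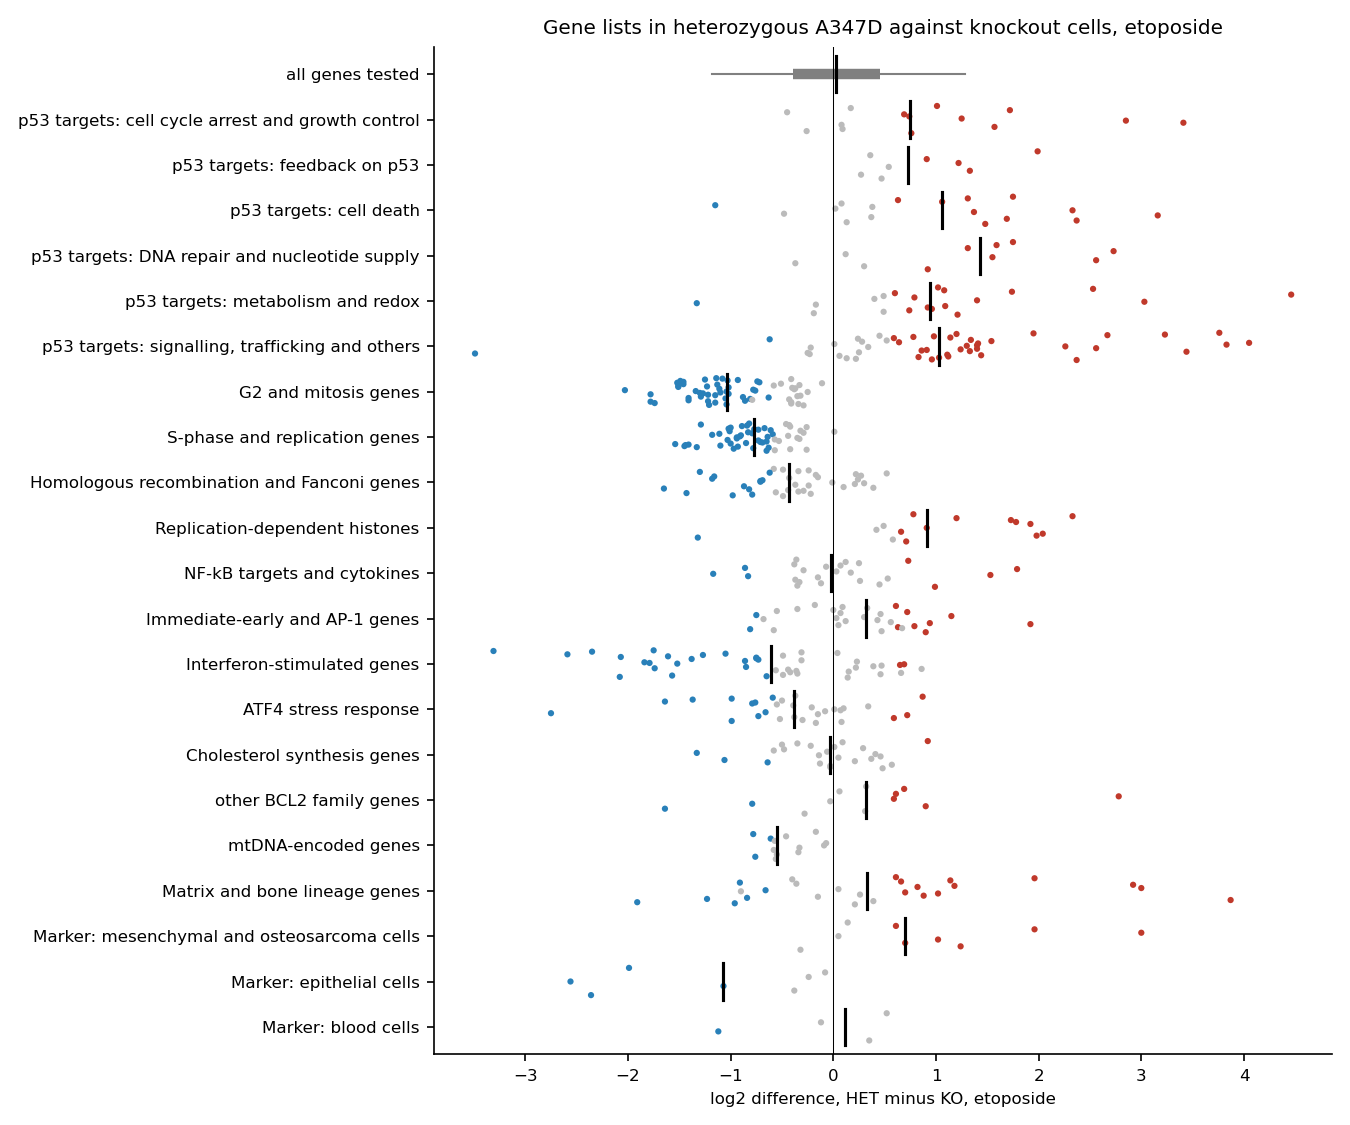
Log2 difference HET minus KO with etoposide for the tested members of each list; red members were called higher, blue lower and grey neither, and black ticks are medians. The top line is all 15745 genes (median 0.03), with the interquartile range as a thick bar; the 6 p53 lists have medians from 0.73 to 1.43 and the G2 and mitosis and S-phase lists of -1.04 and -0.78.

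Of the 42 interferon-stimulated genes tested, 21 were lower in HET in etoposide (16.1% of all genes), 2 higher (17.8%) and 19 not called (median -0.60). In DMSO 18 were lower (17.7%), 6 higher (19.0%) and the other 18 not called (median -0.25). IFIT2, an antiviral RNA-binding protein, stood at 40.64, 55.36, 28.4 and 40.97 in HET and at 374.3, 354.3, 399.4 and 525.4 in KO (-3.31 ± 0.25, adjusted p = 6.64e-12). Every HET library was far below every KO library. The means in WT and HOM were 1062 and 738.7, and 22 of the 42 genes were lower in HET than in WT (13.8% of all genes) and 30 lower than in HOM (17.0%). IFI44 (-2.59 ± 0.23), IFIT3 (-2.35 ± 0.18) and the immunoproteasome subunit PSMB9 (-2.08 ± 0.24) were lower too. The signalling factor STAT2 (0.65 ± 0.07) was among the higher ones. Total-count scaling gave 17 lower (11.2% of all genes) and 6 higher (24.6%).

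NF-kB targets and cytokines showed 4 of 24 higher (17.8% of all genes) and 3 lower (16.1%), with a median of -0.02. Under total-count scaling the median became 0.15, while that of all genes moved from 0.03 to 0.20. BIRC3, an inhibitor of apoptosis, had 496.6 ± 24.6 in HET and 143.4 ± 20.2 in KO (1.79 ± 0.28) and was higher in DMSO (1.94 ± 0.28). The chemokine CCL20 (1.53 ± 0.24), the interleukin receptor IL7R (0.99 ± 0.11) and the NF-kB inhibitor NFKBIE (0.73 ± 0.09) were higher. The chemokine CCL2 (-1.17 ± 0.12), TNFAIP2 (-0.86 ± 0.07) and the cytokine IL6 (-0.83 ± 0.26) were lower, and IL6 lost its call on the deposited scale (-0.41).

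Immediate-early and AP-1 genes showed 8 of 28 higher (17.8% of all genes) and 2 lower (16.1%), with a median of 0.31. Under total-count scaling 13 were higher (24.6% of all genes). The orphan nuclear receptors NR4A3 (1.92 ± 0.17) and NR4A2 (0.94 ± 0.13) and the transcription factor EGR4 (1.15 ± 0.37) were higher. ARC, an immediate-early gene of neurons, was higher in etoposide (0.90 ± 0.11) and lower in DMSO (-1.16 ± 0.11). The mRNA decay factor ZFP36 (-0.81 ± 0.15) and the transcription factor EGR3 (-0.75 ± 0.26) were lower. EGR4 lost its call with all 32 libraries, and EGR3 without HET replicate 3 (-0.49) or KO replicate 1 (-0.65) and on the deposited scale (-0.4).

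Of 12 BCL2 family genes outside the p53 list, 5 were higher (17.8% of all genes) and 2 lower (16.1%), with a median of 0.31, and the share of lower ones was near that of all genes. BCL2A1, a survival gene, stood at 97.37, 84.07, 67.35 and 61.45 in HET and at 9.219, 10.42, 10.55 and 10.93 in KO (2.78 ± 0.34). The survival genes BCL2L1 (0.69 ± 0.09) and MCL1 (0.61 ± 0.09) and the BH3-only gene BIK (0.90 ± 0.18) were higher, and the BH3-only genes BMF (-1.64 ± 0.10) and BAD (-0.79 ± 0.10) were lower. Members of both kinds, protecting and killing, were thus among the higher ones. BCL2L1 was lower in HET in DMSO (-0.67 ± 0.09), and its response difference was 1.36 ± 0.12.

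ATF4 stress response genes showed 3 of 29 higher (17.8% of all genes) and 10 lower (16.1%), with a median of -0.38. The counts were the same in DMSO (19.0% and 17.7% of all genes). FGF21, a stress hormone, had 26.19 ± 2.76 in HET and 184.4 ± 38.4 in KO (-2.75 ± 0.24). PHGDH, the first enzyme of serine synthesis, had 2182 ± 122 and 6790 ± 538 (-1.64 ± 0.11). CHAC1, which degrades glutathione (-1.37 ± 0.12), and the glycyl-tRNA synthetase GARS (-0.99 ± 0.09) were lower. The transcription factors DDIT3 (0.87 ± 0.11) and ATF5 (0.72 ± 0.14) and the tRNA exporter XPOT (0.59 ± 0.12) were higher. XPOT stood just past the threshold and lost its call without HET replicate 1 (0.57) or 2 (0.56) or KO replicate 2 (0.57) or 3 (0.57). It also lost its call on the deposited scale (0.57) and with all 32 libraries in the fit (0.59).

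Of 24 cholesterol synthesis genes 1 was higher (17.8% of all genes) and 3 lower (16.1%), with a median of -0.03, so neither share was above that of all genes. The lower ones were LSS (-1.33 ± 0.10), EBP (-1.06 ± 0.09) and DHCR7 (-0.64 ± 0.13), and DHCR7 lost its call under total-count scaling (-0.47), quantile normalization (-0.53) and voom on the recovered counts (-0.46). Under total-count scaling 4 were higher (24.6% of all genes) and 2 lower (11.2%).

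The 13 protein-coding mtDNA transcripts took 8.35 to 8.87% of the counts in the HET libraries and 9.17 to 12.43% in the KO libraries. Of them 0 were higher (17.8% of all genes) and 3 lower (16.1%), with a median of -0.55. The 3 were MT-ND2 (-0.78 ± 0.18), MT-ATP8 (-0.76 ± 0.26) and MT-ND4 (-0.61 ± 0.18). Without KO replicate 4, the KO library with the smallest share, 8 were lower (16.6% of all genes). Without KO replicate 1 MT-ATP8 (-0.59) and MT-ND4 (-0.47) lost their calls, and without HET replicate 1 MT-ND4 did (-0.58). MT-ND4 also lost it under total-count scaling (-0.44), array weights (-0.54) and voom on the recovered counts (-0.44). MT-ATP8 lost it with all 32 libraries in the fit. Quantile normalization left 0 called and a median of 0.03. In DMSO 11 were lower (17.7% of all genes) and 0 higher (19.0%), with a median of -0.86. The response difference was positive for 1 (10.6% of all genes) and negative for 0 (8.44%), with a median of 0.41.

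Matrix and bone lineage genes showed 12 of 26 higher (17.8% of all genes) and 6 lower (16.1%), with a median of 0.32. FN1, fibronectin, stood at 40540, 39160, 42250 and 42150 in HET and at 4516, 5315, 5152 and 5519 in KO. The groups were far apart, with a difference of 3.0 ± 0.13 (adjusted p = 1.18e-16) and of 1.28 ± 0.13 in DMSO. COL6A3, a collagen VI chain, had 11400 ± 339 and 1511 ± 89.2 (2.92 ± 0.10), with 11330 in WT. LUM, the proteoglycan lumican, had 2304 ± 253 and 158.8 ± 32 (3.87 ± 0.21), with 214.4 in WT. The collagen COL1A2 was higher too (1.96 ± 0.28). The proteoglycan BGN (-1.91 ± 0.33), the crosslinking enzyme LOX (-1.23 ± 0.16), TGFBI (-0.96 ± 0.08) and the collagen COL6A1 (-0.91 ± 0.13) were lower.

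Markers of cell types were read in the same libraries. Of 10 mesenchymal and osteosarcoma markers 9 were tested, and 6 were higher in HET (17.8% of all genes) and 0 lower (16.1%). None was at 0 in either group, and their summed level was 160400 to 180800 in HET and 101000 to 113100 in KO. In DMSO 3 were higher (19.0% of all genes) and 1 lower (17.7%). Of 10 epithelial markers 7 were tested, and in etoposide 0 were higher (17.8% of all genes) and 4 lower (16.1%). Their sums were 10920 to 11910 in HET and 17180 to 21480 in KO, with none at 0. The 4 lower ones were KRT14 (-2.56 ± 0.10), CLDN4 (-2.36 ± 0.12), EPCAM (-1.99 ± 0.22) and KRT8 (-1.07 ± 0.11). All 4 were lower in DMSO too, where 6 of the 7 were lower (17.7% of all genes) and 0 higher (19.0%), with a median of -1.30. The response difference of the 7 was positive for 1 and negative for 1 (median 0.44). Among the mesenchymal markers CD44 (1.24 ± 0.07) and RUNX2 (1.02 ± 0.10) were higher in etoposide. Of 10 blood markers 4 were tested, and in etoposide 0 were higher (17.8% of all genes) and 1 lower (16.1%), CSF1R (-1.12 ± 0.14). Their sums were 272.7 to 315.7 in HET and 362.1 to 402.9 in KO, with HBB at 0 in KO. The part of these levels in the other differences was not tested. In bulk RNA fewer cells of a kind and less RNA per cell cannot be told apart.

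The 12 largest positive and 12 largest negative differences were taken from called genes whose HET or KO mean reached 50 normalized counts and whose libraries did not overlap. Among the 12 higher genes, TREM2, CR381653.2, SNX18P12 and AC119751.3 were high in WT and HET and low in HOM and KO. TREM2, a receptor known from myeloid cells, stood at 259.9, 246, 312.4 and 276.5 in HET and had 1 count in the 4 KO libraries together. It passed the filter through its HET libraries alone. The ratio of means was 1300, with a 95% counting interval from 233 to 51300. WT had 1210 ± 137 and HOM 1.398, and HET in DMSO had 0.8755. CR381653.2 (508.1 in HET, 5.759 in KO and 467.5 in WT), SNX18P12 (252.6, 3.613 and 218.3) and AC119751.3 (153.5, 2.366 and 169.3) are annotated as pseudogenes, so some of their reads may belong to related genes.

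The other 8 higher genes were high in HET in DMSO as well, and WT was far lower. CDKN2B (chromosome 9 at 22002903 to 22009363) encodes the cyclin-dependent kinase inhibitor p15. It stood at 785.7, 736.1, 721.4 and 788.6 in HET and had 3 counts in the 4 KO libraries together, a ratio of 1180 with a 95% counting interval from 404 to 5740. CDKN2B too passed the filter through its HET libraries alone. WT had 25.26 ± 4.33, and HET in DMSO had 746.2 ± 47.2. IGFL3 (1522 in HET, 9.672 in KO and 60.31 in WT), GTSF1 (905.3, 7.392 and 100.1), CRYBA4 (816.6, 13.82 and 185.6), FAM155B (419.3, 3.763 and 14.23) and RTP3 (239.6, 1.499 and 5.642) had the same order. MAGEA10 (161.7, 1.89 and 9.881) and GAGE2A (1667, 11.77 and 79.4) are cancer-testis antigens of the X chromosome. GAGE genes are near copies of each other, so the GAGE2A value is uncertain.

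The 12 lower genes were all lower in HET in DMSO too, and all were lower in HET than in WT and HOM in etoposide. MAML1, a coactivator of Notch signalling, stood at 7.62, 8.202, 4.057 and 5.515 in HET and at 295, 684.2, 337.7 and 554.9 in KO (-5.95 ± 0.39), with 396.1 in WT and 480.1 in HOM. PCDHGB5 (0.8291 in HET and 84.5 in KO) and PCDHB6 (2.97 and 64.78) are clustered protocadherins of chromosome 5. SPRY4 (4.99 and 180.7) is a feedback inhibitor of receptor tyrosine kinase signalling. The other 8 were CABYR (-5.10), GPAT2 (-4.76), TOR4A (-4.55), KRT75 (-4.32), PALM3 (-4.29), PKP3 (-4.23), CA9 (-3.99) and AQP1 (-3.87). AQP1, the water channel aquaporin, had 157.5 ± 10.8 and 2313 ± 104.

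**Figure D4:**
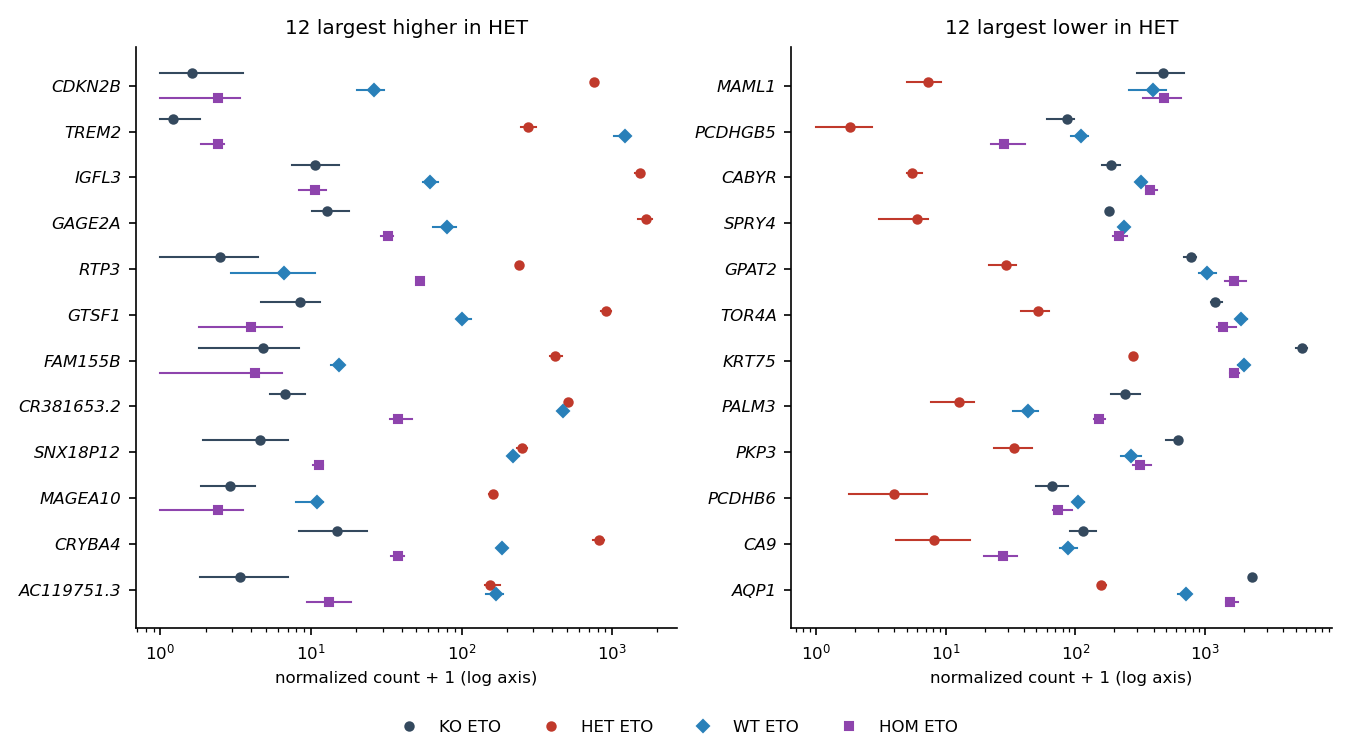
Normalized count + 1 (log axis) with etoposide for the 12 genes with the largest positive and the 12 with the largest negative difference; points are group means and lines span the lowest to the highest of 4 libraries. On the left WT lies near or above HET for TREM2 and the 3 pseudogenes and below it for the other 8, and on the right WT and HOM lie above HET in all 12.

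The largest positive response differences were mostly in genes that both lines held at a low level in DMSO. The filter on etoposide libraries lets such genes in and leaves out genes with counts in DMSO only. How much of this pattern comes from the filter was not tested. Where a group was at or near 0, the fitted difference depends on the pseudocount of 1. TREM2 had 6.97 ± 0.41 (adjusted p = 7.70e-13). LCE1E, a gene of the skin's cornified envelope, had 0 counts in HET and 0 in KO in DMSO. After etoposide it stood at 44.03, 38.96, 64.92 and 64.6 in HET and had 2 counts in the KO libraries together, a ratio of 130 (95% counting interval 35.6 to 1080). TREM2 and LCE1E passed the filter through their HET libraries alone. NECTIN4, a cell adhesion gene, had 962.1 ± 57 in HET and 23.38 ± 1.45 in KO after etoposide and 4.613 and 3.522 in DMSO (response difference 5.00 ± 0.39). CYGB, cytoglobin, had 204 ± 13.9 and 9.062 ± 1.97 after etoposide and 24.95 and 28.49 in DMSO (4.58 ± 0.24). In SULF2, a sulfatase of heparan sulfate, the lines already differed in DMSO, with 1.982 in HET and 21.55 in KO, and had 67 and 22.95 in etoposide (4.68 ± 0.40). DSEL, a dermatan sulfate epimerase-like gene, ranged from 0 to 91.09 over the HET DMSO libraries, and its difference in etoposide was not called (0.83 ± 0.90, response difference 4.91 ± 1.27).

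The largest negative response differences were mostly in genes that HET cells held at a high level in DMSO. PI15, a secreted peptidase inhibitor, had 680.4 in HET and 42.21 in KO in DMSO, and 16.96 and 11.3 in etoposide (-3.36 ± 0.38). CLEC7A, the receptor dectin-1, had 373.3 and 26.48 in DMSO, and 59.33 and 39.52 in etoposide (-3.24 ± 0.36). Neither was called between the lines in etoposide (0.57 and 0.54). PI15 was called without HET replicate 3 (0.69) or KO replicate 4 (0.74), under total-count scaling (0.74) and with array weights (0.59). CLEC7A was called without HET replicate 3 (0.67) or 4 (0.67) or KO replicate 4 (0.66). It was also called under total-count scaling (0.71), with array weights (0.6) and with voom on the recovered counts (0.65). The homeobox gene ALX4 (-3.15 ± 0.50), the salivary protein gene PRB2 (-3.07 ± 0.94) and the lectin gene CLEC3A (-2.95 ± 0.51) were still higher in HET in etoposide, by 2.83, 2.32 and 2.26. SLITRK6, a neuronal membrane protein gene, was lower in HET in etoposide, with 6.612 against 47.49, (-2.66 ± 0.33), after 133.4 and 65.48 in DMSO (-3.68 ± 0.47).

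Differences between the 2 lines were unevenly placed along the genome. In windows of 10 Mb with at least 15 tested genes, 35 of 283 had a median past 0.5 in either direction in etoposide, 27 above and 8 below. Of these 35, 30 were past 0.5 with the same sign in DMSO, and for the response difference 3 of the 283 were past it. The first 90 Mb of chromosome 3 held 424 tested genes with a median of 0.67, and 56.1% of them were higher. There the median was 0.63 in DMSO and 0.04 for the response difference. The first 20 Mb of chromosome 9 had a median of 0.93 over 52 genes, and the first 50 Mb of chromosome 7 a median of -0.54 over 244 genes. These stretches were picked after their values were seen.

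Named genes lie in such windows, CDKN2B in one with a median of 0.63 and MDM2 in one with 0.64. Measured against the median of their own windows, p53 targets had a median difference of 0.84, with 96 above it and 19 below, and S-phase genes one of -0.75, with 0 above and 54 below.

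**Figure D5:**
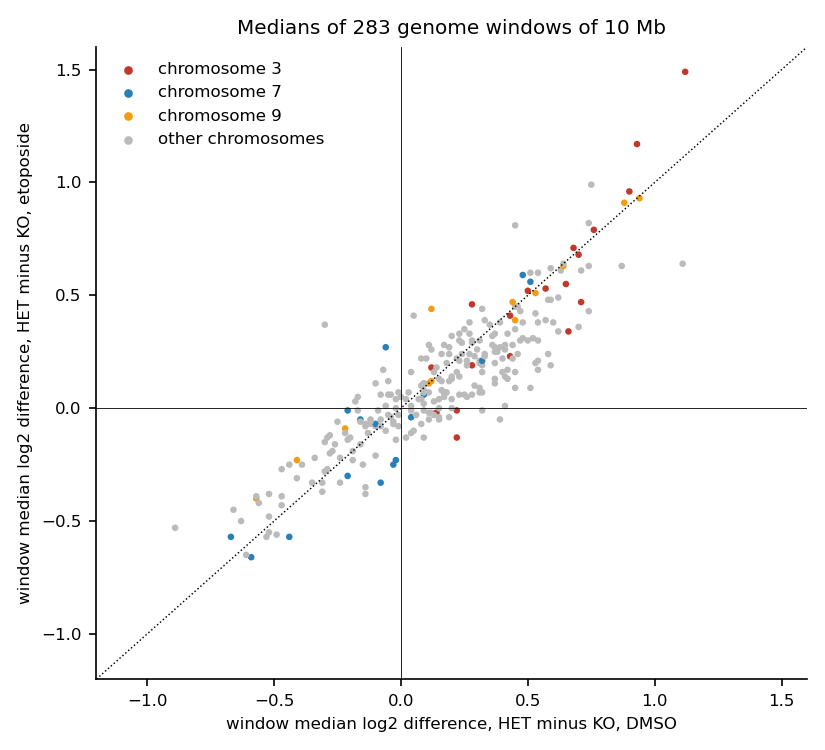
Each point is 1 of 283 windows of 10 Mb, with the median log2 difference HET minus KO of its tested genes in DMSO (x axis) and in etoposide (y axis); chromosomes 3, 7 and 9 are coloured and the dotted line marks equal medians. The highest window, with 1.49 in etoposide and 1.12 in DMSO, is on chromosome 3, and the lowest, with -0.66 and -0.59, on chromosome 7.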

How the data were processed

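RNA was measured in U2OS cells by poly-A RNA-seq. The authors deposited values on a log2-like, variance-stabilized scale with a floor of 4.43; kallisto, DESeq2 and the build GRCh38 are named in the submitters' processing notes, without versions, and the counting strand is not given in the sources used here. A deposited signal, the mean normalized count per gene, allowed the transform to be inverted (asymptotic dispersion 0.05). The result matched that mean to within a relative difference of 4.5e-14, and 100.0% of the recovered counts were whole within 0.01. Recovered totals were 8051382 to 24186765 per library, and 3 counts corresponded to 2.301 to 6.371 normalized counts. Counting intervals cover counting error only.

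Differences were tested with limma 3.58.1 (trend) in R 4.3.3 on log2(normalized count + 1), with 1 mean per group. HOM in DMSO was left out of the fit because 3 of its 4 libraries stood apart, with mtDNA shares of 20.68 to 21.92%. Adjusted p-values are Benjamini-Hochberg over 15745 genes. On simulated data for HET against KO in etoposide over 15745 genes, 88% of 100 genes changed 2-fold and 99% of 100 changed 4-fold were called, with 6 false calls. The simulation used the same dispersion for every gene, and all other genes had equal means in all groups. These rates therefore do not give the error rates of the real comparison, where many more genes differed. Gene positions come from GENCODE release 29 (15593 tested genes had 1 position). Same-numbered HET and KO libraries did not deviate together, so replicate numbers were not used as pairs.

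Besides 8 p53 targets, genes were named as the 12 largest in each direction and the 6 largest called response differences in each direction. For each list the called members with the largest differences, up to 4 a direction, were named too. Some genes that this rule names are not reported here. The members and lists were chosen with earlier results of these data known. Alternatives were the pseudocount, the filter, the scaling, the libraries in the fit, array weights, the deposited scale, voom, a replicate block and leaving out each library.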

Additional observations from a re-analysis of the deposited data

Results flagged for a closer look

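Among 284 checks of 1 value in 1 group of 4 etoposide libraries, 13 had a library far from the other 3, and chance gives about 1 in 20. The 13 are thus about as many as chance gives. HET replicate 2 had 8051382 counts (8.05 M) and 20819 genes with a count. It was also the lowest in SPRY4 (2.05 normalized counts) and the highest in IL6 (28.71). HET replicate 3 stood apart in RRM2B (3256) and HIST2H2BE (975.4), and HET replicate 4 in CABYR (5.515). KO replicate 1 had 20425 genes with a count and stood apart in PKP3 (500.6) and ACER2 (33.19), and KO replicate 2 in AC119751.3 (6.078). KO replicate 4 stood apart in CDKN2B (2.522) and TREM2 (0.8407), where the other 3 KO libraries had 0. With 3 libraries at 0, any count in the remaining one is flagged.

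The response difference, HET minus KO of the change on etoposide, is listed for 12 genes. They were the largest among genes already called for it, so their calls are no further evidence. Where a group was at or near 0, as for TREM2 and LCE1E, the value depends on the pseudocount of 1. It was positive for TREM2 (6.97), LCE1E (5.28), NECTIN4 (5.00), DSEL (4.91), SULF2 (4.68) and CYGB (4.58). It was negative for SLITRK6 (-3.68), PI15 (-3.36), CLEC7A (-3.24), ALX4 (-3.15), PRB2 (-3.07) and CLEC3A (-2.95).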

How the results depend on the processing

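Of 139 named genes 126 kept their direction and call for HET against KO in etoposide under every alternative run, 10 lost the call somewhere and 3 gained one. MT-ND4 turned to 0.03 under quantile normalization (adjusted p = 0.807 by limma). In etoposide the counts of higher and lower genes were 3881 and 1770 under total-count scaling, 3986 and 1761 with voom on recovered counts, 2023 and 1977 on the deposited scale, and 2879 and 2539 with voom on the deposited size factors, an alternative chosen after seeing the data. In DMSO total-count scaling gave 5066 higher and 1667 lower genes and voom 5049 and 1652, with the median of all genes at 0.30. The response difference was negative for 802 genes with all 32 libraries in the fit; it was positive for 1303 and negative for 1805 under total-count scaling, and 1299 and 1826 with voom. Leaving out 1 library gave 2674 to 2884 higher and 2453 to 2611 lower genes in etoposide, 2540 to 3338 and 2525 to 3058 in DMSO, and 1508 to 1741 positive and 1185 to 1522 negative response differences. The cause of these shifts was not tested.

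Correlations of deviations between same-numbered HET and KO libraries were -0.08 to 0 in etoposide and -0.17 to -0.02 in DMSO. With a replicate block 2800 genes were higher and 2541 lower in etoposide, 2998 and 2796 in DMSO, and the response difference was positive for 1673 and negative for 1360. HET replicate 2, with 8051382 counts, limits the precision of low genes.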
